A study of Mus musculus with 12 samples.

Results

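Ovalbumin was set against saline in the lungs of wild-type (WT) mice, using 6 of the 12 RNA-sequencing libraries of the series: 3 from WT mice with ovalbumin (libraries 1 to 3) and 3 from WT mice given saline (libraries 4 to 6). The mice were of the C57BL/6 strain, and the ovalbumin group had been sensitized to the protein and then received it through the nose. The titles of that group give a time of 24, with no unit. Age, sex and dose are not given in the labels, and the saline group is described only by its treatment. The other 6 libraries, from Has2+/- mice under the same treatments, entered the fit because they share its estimate of the spread. The members of the comparison are all genes of the deposited table, 49585 in number, of which 19017 had a mean of at least 1 normalized unit in at least 1 of the 4 groups and were tested. Every value below is in these units, which the authors forced to 1 common distribution in all libraries. A change is the difference of log2(value + 1), ovalbumin minus saline, and a gene is said to have risen or fallen where limma's adjusted p was below 0.05. No label states that the 3 libraries of a group are 3 animals, and the spread behind each p-value may thus be technical.

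Ovalbumin is a harmless protein of egg white to which mice become allergic when it is first given with the immune system on alert. A later dose into the airways recalls T helper cells and antibodies, and the lung answers with chemokines, incoming eosinophils and monocytes, mucus from goblet cells and, over time, new matrix. In the mouse this is the standard model of allergic asthma. Because whole lung was measured, fewer cells of a type and less RNA per cell cannot be told apart in any result below.

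The lung label was checked against 8 markers of lung epithelium, whose summed level was 172340, 180860 and 176330 units with ovalbumin and 200250, 199890 and 197820 with saline. The 6 libraries did not part cleanly by treatment over all genes. Library 3 had a Spearman correlation across genes of 0.971 and 0.974 with libraries 1 and 2 of its own group and of 0.984, 0.977 and 0.982 with saline libraries 4, 5 and 6. Library 3 also held markers of squamous epithelium and skeletal muscle at levels of the saline libraries. Its summed fat cell and cardiomyocyte markers lay below those of every saline library. The 10 markers of squamous epithelium, a lining of the upper airway and oesophagus, summed to 54.5 and 32.3 units in libraries 1 and 2, to 28045 in library 3, and to 31099, 1949 and 23105 with saline. The 10 markers of skeletal muscle followed the same order, with 176 and 237, then 10944, against 11159, 4161 and 10306. In limma 0 of 10 markers passed in both of these lists, with 0 and 4 of 10 lower at an unadjusted p under 0.05. When library 3 was left out 3 and 9 fell. Of all 19017 tested genes, 2973 were lower at that unadjusted p, and 1635 fell in limma without library 3. Krt13 and Krt4, the paired keratins of that lining, were listed at 1.08 and 1.08 in library 1 and at 12324 and 13669 in library 3. The part of other tissue in the results was not tested beyond a fit with the squamous level as a covariate, given in the closing section.

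**Figure D1:**
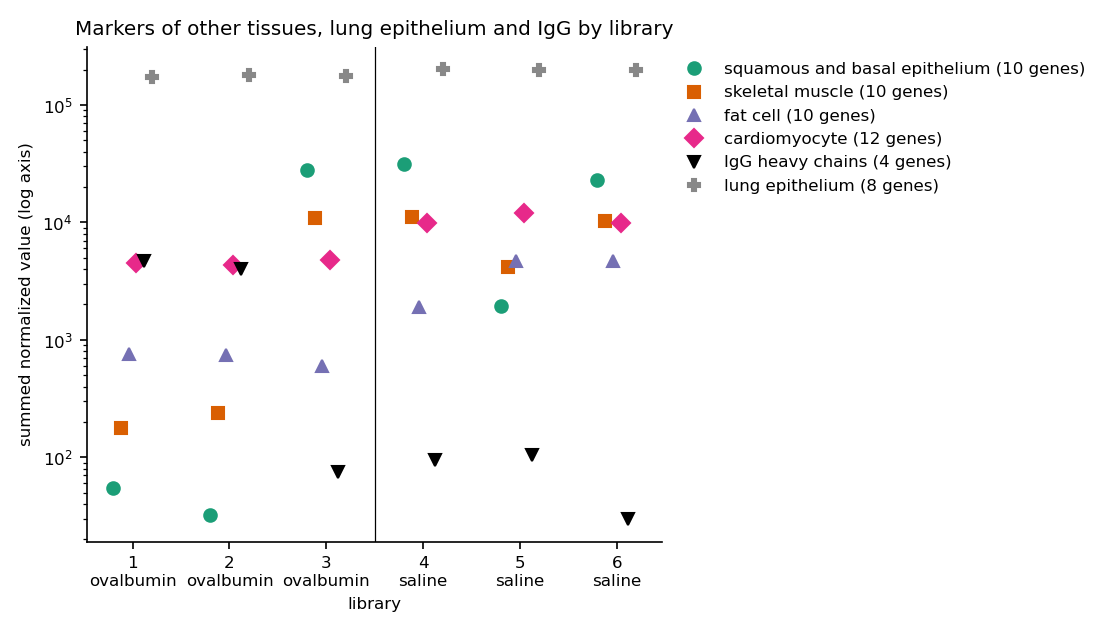
Summed normalized value (log axis) of 5 marker lists and of the 4 IgG heavy chain genes in each of the 6 WT libraries. Squamous epithelium and skeletal muscle markers are lowest in libraries 1 and 2, fat cell and cardiomyocyte markers are lower in all 3 ovalbumin libraries than in any saline library, and IgG is high in libraries 1 and 2 alone.

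After ovalbumin 1645 genes rose, which is 8.65% of those tested, and 1530 fell, which is 8.05%. The rises were the larger changes. Of the genes that rose, 497 did so by more than 1 on the log2 scale, 134 by more than 2 and 33 by more than 3. Of those that fell, 219 passed 1, 31 passed 2 and 7 passed 3. The median size was 0.631 for rises and 0.461 for falls, and the median change of all tested genes was -0.03. The 3 ovalbumin values lay all above the 3 saline values in 16.2% of the tested genes and all below them in 17.6%, and this held for 1619 of the genes that rose and 1500 of those that fell. Genes that rose took 13.1% of all units with saline and 19.9% with ovalbumin. Genes that fell took 20.1% and 15.1%. These counts depended on the libraries used: without library 1 or 6, 918 and 961 genes rose, and without library 1, 4, 5 or 6, 735, 1004, 933 and 847 fell. Without library 3, 1709 rose and 1635 fell. Leaving out a library also lowers power, and the part of this in the lower counts was not tested. A gene given below with its change and p as having passed kept its call when each of the 6 libraries was left out in turn, unless the text says otherwise. Genes given for contrast that did not pass were chosen after their values were seen, except members of the tandem families and markers of other tissues.

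**Figure D2:**
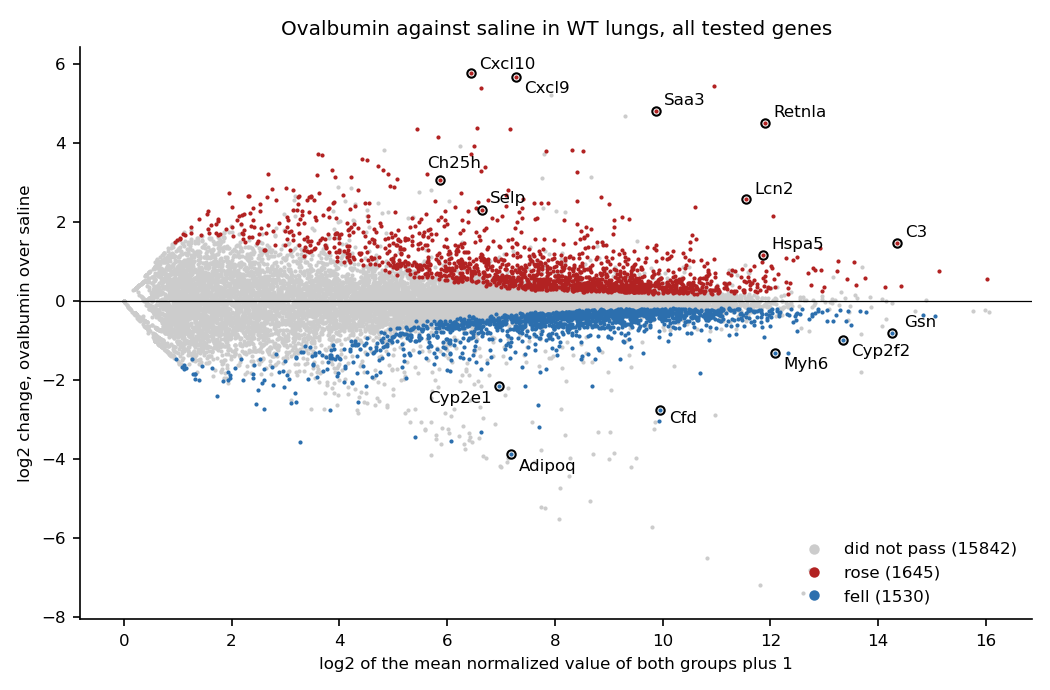
Log2 change of each of the 19017 tested genes against the log2 of its mean normalized value plus 1, with genes that rose in red, genes that fell in blue and the rest in grey. The rises reach further from 0 than the falls, with Cxcl10 at 5.77 and Adipoq at -3.87, and the grey points below -4 are genes whose values are low in libraries 1 and 2 but not in library 3.

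The response was then read through 39 gene lists by function, 7 families that sit side by side on a chromosome and 20 marker lists of cell types. In the lists of costimulation, feedback inhibitors, MHC class I and ER folding most members rose and 0 fell, while in those of xenobiotic metabolism and VEGF signalling 8 members each fell and 0 rose. The shares below are set against 8.65% of all tested genes for rises and 8.05% for falls. Because the lists were chosen with earlier results of these data known, the shares describe the lists and are no test of enrichment.

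**Figure D3:**
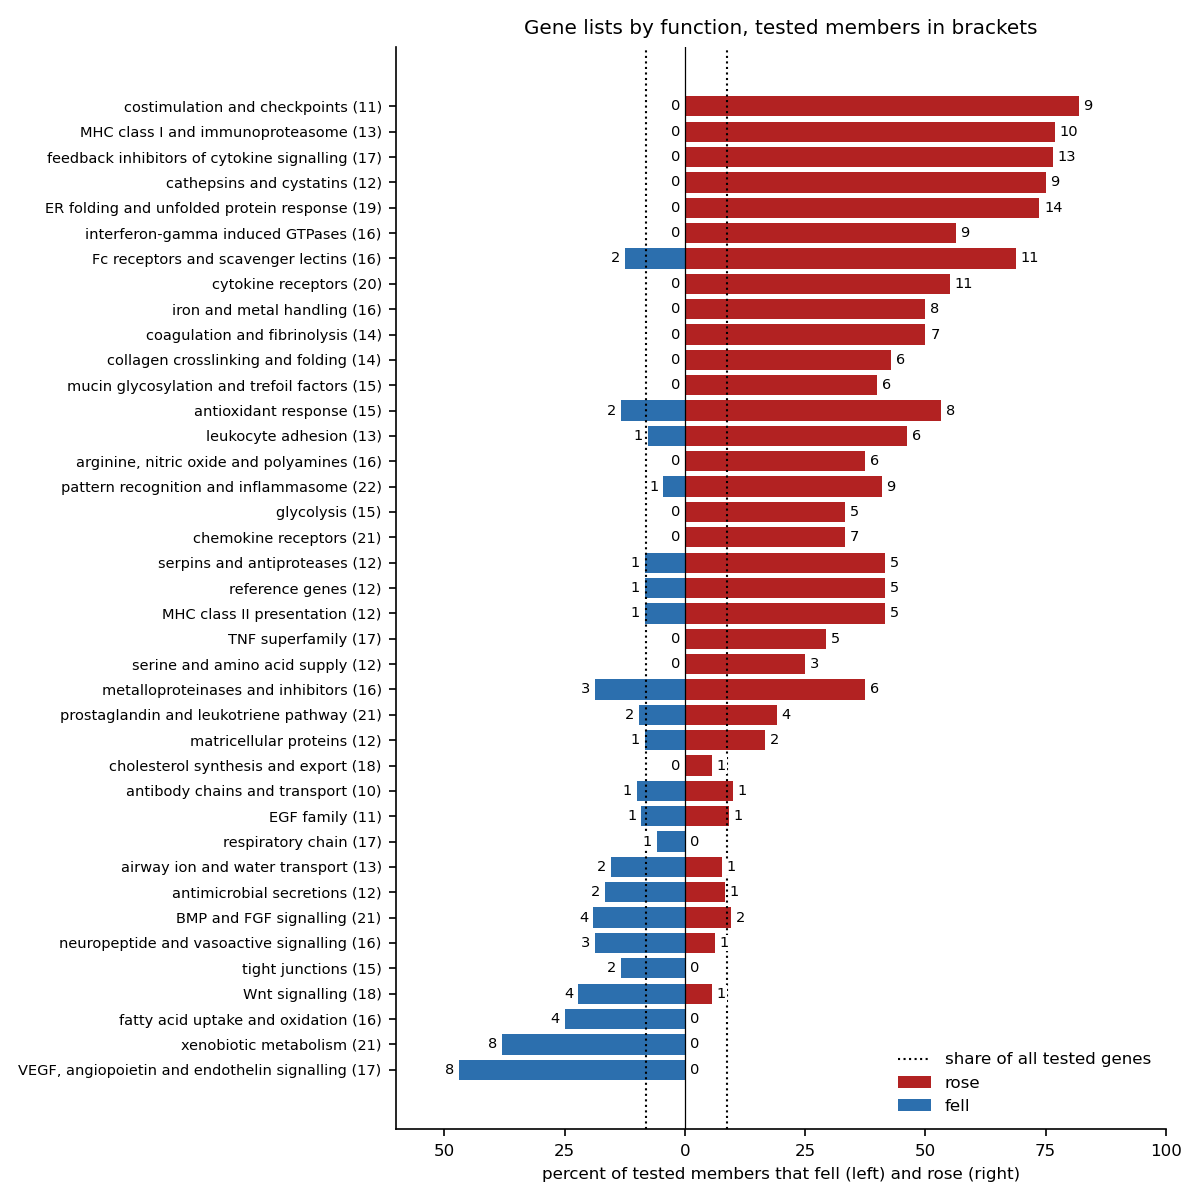
Percent of the tested members of each of the 39 function lists that rose (red, to the right) or fell (blue, to the left), with the number of genes at the end of each bar and the number tested in brackets. Dotted lines mark the shares of all tested genes, 8.65% and 8.05%. Costimulation, MHC class I, feedback inhibitors, cathepsins and ER folding have the largest shares of rises, and VEGF signalling and xenobiotic metabolism the largest shares of falls.

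Chemokines, small secreted proteins that draw leukocytes along a gradient, are encoded in clusters of neighbouring genes. In the CC cluster of chromosome 11, 9 of 11 tested genes rose and 0 fell, with a median log2 change of 2.32, and all 9 kept their calls without each library. The monocyte attractant Ccl7 stood at 108, 54.8 and 84.2 units with ovalbumin and 5.5, 1.83 and 2.33 with saline (log2 change 4.35, SE 0.60, adjusted p = 0.00093). Its neighbour Ccl8, which in the mouse acts on CCR8 of T helper 2 cells, stood at 241, 139.8 and 122 units with ovalbumin and 15.2, 9.92 and 5.75 with saline (log2 change 3.93, SE 0.44, adjusted p = 0.000479). The 2 groups did not overlap in either gene, and the lowest ovalbumin value was several times the highest saline value. Ccl2, the main ligand of CCR2 on monocytes, stood at 65.3, 38.1 and 55.2 units with ovalbumin and 6.5, 6.42 and 2.33 with saline (log2 change 3.21, SE 0.56, adjusted p = 0.00191). Ccl12, another mouse ligand of that receptor, stood at 25.6, 18.3 and 21 units with ovalbumin and 6.5, 4 and 1.33 with saline (log2 change 2.34, SE 0.48, adjusted p = 0.0044). For Ccl3 and Ccl4, the macrophage inflammatory proteins, the changes were 2.32, adjusted p = 0.00834 and 2.74, adjusted p = 0.00312. Ccl11, eotaxin, which acts on CCR3 of eosinophils, stood at 123, 61.3 and 124 units with ovalbumin and 17.1, 21.6 and 19.6 with saline, with library 2 the lowest of the ovalbumin libraries (log2 change 2.28, SE 0.26, adjusted p = 0.000118). At the other end of the cluster Ccl9 (2.09, adjusted p = 0.000186) and Ccl6 (1.11, adjusted p = 0.0121), chemokines of myeloid cells, rose from higher levels.

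Ccl5, a T cell and NK cell chemokine of the same cluster, did not follow its neighbours. It stood at 177, 189 and 119.8 units with ovalbumin and 224, 127 and 119 with saline, with overlapping groups (log2 change 0.08, adjusted p = 0.862, 95% confidence interval -0.48 to 0.64). Ccl1 was at 0 in 5 of the 6 libraries.

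Of 10 tested CXC chemokine genes of chromosome 5, 8 rose and 1 fell, with a median change of 2.15. Cxcl10 (chromosome 5, 92346638 to 92348889, minus strand, mm10) and Cxcl9 (chromosome 5, 92321347 to 92328079, minus strand), interferon-induced ligands of CXCR3 on T cells, lie in the same cluster and had the largest rises of the whole comparison among genes with a group mean of at least 20 units. Cxcl10 stood at 248, 113 and 149 units with ovalbumin and 2.25, 0.917 and 3.17 with saline (log2 change 5.77, SE 0.54, adjusted p = 0.000147). Cxcl9 stood at 365, 317 and 224 units with ovalbumin and 12.5, 1.83 and 4.08 with saline (log2 change 5.68, SE 0.60, adjusted p = 0.000525), and without library 4 its change was 6.29. The neutrophil chemokine Cxcl2 stood at 50.4, 38.1 and 61.7 units with ovalbumin and 3.08, 6.42 and 3.17 with saline (log2 change 3.32, SE 0.49, adjusted p = 0.000647), and Cxcl1 changed by 2.55, adjusted p = 0.00217. Cxcl13, the chemokine of B cell follicles, stood at 105, 61.6 and 50.8 units with ovalbumin and 15.2, 24.9 and 20.6 with saline (log2 change 1.75, SE 0.27, adjusted p = 0.000796). Cxcl15, a product of lung epithelium that was already abundant, rose by little, from 3506, 3566 and 3472 to 4294, 4977 and 4054 (log2 change 0.33, SE 0.07, adjusted p = 0.00533). Cxcl5, another epithelial neutrophil chemokine, did not pass, at 76.8, 19.6 and 10.2 units with ovalbumin and 18.7, 18.3 and 6.67 with saline. The platelet chemokine genes Ppbp and Pf4, which share the cluster, changed in opposite directions (-0.79, adjusted p = 0.0211, and 0.63, adjusted p = 0.0473), and their calls ended without 3 and 5 of the 6 libraries. Cxcl3, at 3.15, lost its call without library 1, 4, 5 or 6 (adjusted p = 0.0695, 0.0588, 0.0625 and 0.0742). The count of rises was 6 to 7 with any 1 library left out.

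**Figure D4:**
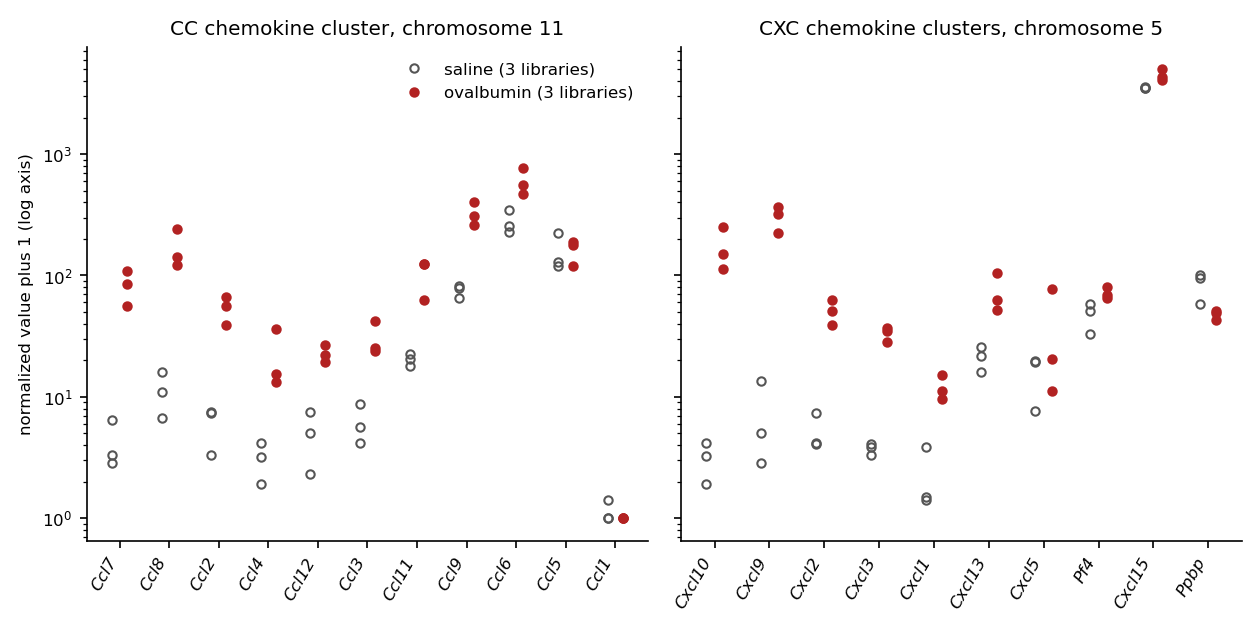
Normalized value plus 1 (log axis) of each tested chemokine gene of the chromosome 11 and chromosome 5 clusters, with 1 point per library, saline open and ovalbumin filled. The groups are apart for Ccl7, Ccl8, Ccl2, Ccl11 and Ccl9 and for Cxcl10, Cxcl9 and Cxcl2, and they overlap for Ccl5, Ccl1 and Cxcl5.

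Genes by which leukocytes stop on vessel walls and sense chemokines rose in part. Of 13 tested adhesion genes 6 rose and 1 fell, with a median of 0.31. Selp, which encodes P-selectin and lets leukocytes roll on the endothelium, stood at 163, 169.5 and 165 units with ovalbumin and 43.2, 28.2 and 27.9 with saline. The ovalbumin libraries lay close together and far above every saline library (log2 change 2.32, SE 0.22, adjusted p = 2.34e-05). E-selectin (Sele) stood at 42.4, 28.2 and 71.7 units with ovalbumin and 18.4, 10.6 and 12.8 with saline (log2 change 1.63, SE 0.32, adjusted p = 0.00292). Vcam1, the endothelial ligand of the eosinophil and lymphocyte integrin alpha4beta1, stood at 572, 665 and 593 units with ovalbumin and 358, 350 and 311 with saline (log2 change 0.84, SE 0.11, adjusted p = 0.000461), and Icam1 changed by 0.52, adjusted p = 0.00341. Among the integrin chains Itgb2 rose, while Itga4 stood at 1026, 839 and 752 units with ovalbumin and 870.4, 877 and 715 with saline and Itgal at 1118, 956 and 866 units with ovalbumin and 884, 881 and 744 with saline, and neither passed. The single fall was that of the endothelial cadherin Cdh5 (-0.26, adjusted p = 0.0121), which ended without library 5 (adjusted p = 0.0681), and without library 3 there were 2 falls.

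Of 21 tested chemokine receptor genes 7 rose and 0 fell, with a median of 0.60, and 1 fell without library 4. Ccr3, the eotaxin receptor of eosinophils, stood at 48.3, 21.9 and 14.5 units with ovalbumin and 4.67, 1.83 and 3.17 with saline (log2 change 2.68, SE 0.42, adjusted p = 0.000773). Ccr1, a receptor of monocytes and other myeloid cells, stood at 199.5, 146 and 132 units with ovalbumin and 49.9, 42 and 40.7 with saline (log2 change 1.81, SE 0.26, adjusted p = 0.000937). Neither gene had overlapping groups. Cxcr2, through which neutrophils sense Cxcl1 and Cxcl2, stood at 111, 68.5 and 131 units with ovalbumin and 67.9, 117 and 70.4 with saline, with overlapping groups (log2 change 0.27, adjusted p = 0.684). In the eosinophil marker list 4 of 7 genes rose (Ccr3, Ear2, Ear6 and Prg2), but 2, 2, 1 and 2 did without library 1, 2, 4 or 6. Ear1, Siglecf and Il5ra did not pass, and 1 gene of the list fell without library 2. The 7 markers summed to 483, 518 and 373 units with ovalbumin and 290, 359 and 334.5 with saline. Markers of NK and cytotoxic cells gave 0 calls in limma among 12, and at an unadjusted p under 0.05 there were 0 higher and 2 lower. Among all 19017 tested genes 2750 were higher and 2973 lower at that level.

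Many receptors and surface signals of activated lymphocytes and antigen-presenting cells rose. Of 20 tested cytokine receptor genes 11 rose and 0 fell, with a median of 0.59. Without library 1 or 6 the count was 6. Csf2rb2, a mouse receptor chain for IL-3, stood at 499.9, 322 and 312 units with ovalbumin and 116, 146 and 118 with saline (log2 change 1.54, SE 0.23, adjusted p = 0.00173). Il2ra, the CD25 chain that activated and regulatory T cells carry, stood at 76, 55.2 and 57.5 units with ovalbumin and 20, 27.9 and 20 with saline (log2 change 1.44, SE 0.24, adjusted p = 0.00114). The groups of both genes were apart. Il4ra, the chain shared by the receptors of IL-4 and IL-13, changed by 0.63, adjusted p = 0.000422, and the oncostatin receptor gene Osmr by 0.48, adjusted p = 0.00253. The IL-33 receptor gene Il1rl1 did not pass, at 59.2, 46.1 and 64.1 units with ovalbumin and 43.7, 39.1 and 39.2 with saline (adjusted p = 0.0885). In the TNF superfamily 5 of 17 genes rose (Ltb, Tnfrsf1b, Tnfrsf4, Tnfrsf9 and Tnfsf13b) and 0 fell (8 without library 3). Tnfrsf9, the costimulatory receptor 4-1BB, stood at 87.4, 36.3 and 44.8 units with ovalbumin and 8.83, 4.83 and 5.58 with saline (log2 change 2.88, SE 0.47, adjusted p = 0.00155). Tnfrsf4, OX40, stood at 41.6, 52.2 and 32.4 units with ovalbumin and 13, 10.8 and 16.5 with saline (log2 change 1.57, SE 0.33, adjusted p = 0.00467). The gene of the cytokine itself, Tnf, stood at 78.6, 58.8 and 27.2 units with ovalbumin and 29.2, 28.2 and 19.2 with saline and did not pass.

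Costimulators and checkpoint receptors formed the function list with the largest share of rises: 9 of 11 tested genes rose and 0 fell, with a median of 1.67, although 5 rose without library 1. Ctla4, the inhibitory receptor of T cells for CD80 and CD86, stood at 36.5, 42 and 18.1 units with ovalbumin and 5.58, 5.17 and 4.08 with saline (log2 change 2.41, SE 0.37, adjusted p = 0.000738). Its ligand genes rose with it, Cd80 from 9.92, 2.83 and 6.67 to 28.9, 18.3 and 32.8 (log2 change 1.98, SE 0.38, adjusted p = 0.00291) and Cd86 from 41.1, 37.1 and 43.7 to 140.3, 131 and 66.8 (log2 change 1.38, SE 0.25, adjusted p = 0.00263). Cd274, which encodes the checkpoint ligand PD-L1, stood at 925, 426 and 449.9 units with ovalbumin and 181, 171 and 176 with saline (log2 change 1.67, SE 0.30, adjusted p = 0.0068). Within the ovalbumin group library 3 was the lowest for Ctla4 and Cd86 and the highest for Cd80. Icosl, the ligand of ICOS, stood at 262, 264 and 203 units with ovalbumin and 213, 209 and 213 with saline and did not pass.

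Most genes of the list that damps cytokine and NF-kappaB signalling rose. Of 17 tested feedback inhibitors 13 rose and 0 fell, with a median of 0.55, and 10 to 12 rose with any 1 library left out. Tnfaip3, which encodes the ubiquitin-editing inhibitor A20, stood at 742, 724 and 706 units with ovalbumin and 334, 350.3 and 335 with saline. The spread within each group was small beside the gap (log2 change 1.09, SE 0.10, adjusted p = 2.34e-05). Nfkbia, the gene of the inhibitor that holds NF-kappaB in the cytoplasm, stood at 1985, 2227 and 2204 units with ovalbumin and 1605, 1362 and 1408 with saline (log2 change 0.55, SE 0.07, adjusted p = 0.000347). Its relative Nfkbie stood at 377, 248 and 263 units with ovalbumin and 122, 149.5 and 133 with saline (log2 change 1.11, SE 0.16, adjusted p = 0.000654), and Tnip1, an A20 partner, changed by 0.55, adjusted p = 0.000479. The other members that rose, between 0.36 and 2.49 on the log2 scale, were Il1rn, Tnip3, Socs1, Socs3, Zc3h12a, Dusp2, Zfp36, Cish and Nfkbiz. Of the 13 rises 10 kept the call without each library. Dusp1, which encodes a MAP kinase phosphatase, stood at 1092, 1795 and 1839.6 units with ovalbumin and 1735, 1289 and 1379 with saline, with library 1 below every saline library, and did not pass.

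Interferon gamma induces large GTPases that attack vesicles holding microbes, and raises the display of peptides on MHC molecules. Of 16 tested GTPase genes 9 rose and 0 fell, with a median of 1.21. Without library 1 or 6 the count was 5, and without library 4 it was 14. Igtp stood at 159.7, 84.2 and 97 units with ovalbumin and 57.3, 25.5 and 22.8 with saline (log2 change 1.73, SE 0.31, adjusted p = 0.00273), Gbp5 at 859.6, 482 and 452 units with ovalbumin and 227, 118 and 138 with saline (log2 change 1.88, SE 0.36, adjusted p = 0.00992). Gbp10 stood at 79.6, 42.2 and 34.1 units with ovalbumin and 21.9, 5.25 and 6.67 with saline (log2 change 2.27, SE 0.49, adjusted p = 0.00665). Library 1 was the highest of the ovalbumin libraries and library 4 the highest of the saline libraries in each of these 3 genes, and the groups were still apart. Genes of this family have near-identical copies, among them Tgtp1 and Tgtp2 and several Gbp genes, and the rule for reads that fit several copies is not known here.

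The promoters of these GTPases are shown because their known inducer acts through a repeated GAAA box, the interferon-stimulated response element. In the 250 bases before the RefSeq start site, searched on both strands, a pair of GAAA boxes with any 2 bases between them was found in 9 of the 10 list members that have an entry in the table of start sites, against 3.29% of the 13550 tested genes with an entry and 3.46% of all 27025 genes. Of the 446 tested genes with this match 76 rose and 25 fell. Of the 9 list members with it 5 rose. The stretches below run 5′ to 3′ on the strand of the gene, with the match in capitals on either strand, and are chosen from members that rose. Capitals in Gbp2 and Gbp5 show the reverse complement.
Gbp5: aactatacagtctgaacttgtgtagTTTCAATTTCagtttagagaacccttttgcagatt
Gbp2: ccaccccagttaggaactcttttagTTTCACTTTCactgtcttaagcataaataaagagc
Igtp: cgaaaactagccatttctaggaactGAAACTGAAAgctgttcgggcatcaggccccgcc
Irgm1: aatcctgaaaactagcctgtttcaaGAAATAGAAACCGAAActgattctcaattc
They are RefSeq sequences of GRCm38.p6: Gbp5 chr3:142496744-142496803 (plus strand), Gbp2 chr3:142620579-142620638 (plus strand), Igtp chr11:58199497-58199555 (plus strand), Irgm1 chr11:48871421-48871475 (minus strand). The match of Igtp begins 34 bases before the start site, that of Gbp2 59 bases and that of Gbp5 165 bases before it, and Irgm1 has 2 overlapping matches at 30 and 24 bases. Irgm1 and Gbp2, named for these sequences after their values were seen, stood at 1071, 634 and 609 units with ovalbumin and 367, 259.6 and 312 with saline (1.26, adjusted p = 0.0142) and at 1936, 1073 and 1099 units with ovalbumin and 689, 333 and 520.2 with saline (1.42, adjusted p = 0.0196). With the squamous level as a covariate both calls ended, and that of Gbp2 also ended without library 1 or 6 (adjusted p = 0.063 and 0.0567) and in a fit of the 6 WT libraries alone.

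In the MHC class I list, which holds the peptide transporter and the immunoproteasome, 10 of 13 tested genes rose and 0 fell, with a median of 0.79. In turn, 6, 4 and 4 rose without library 1, 5 or 6. Psme2, a subunit of the proteasome activator, stood at 647, 480.5 and 488 units with ovalbumin and 297, 295 and 262 with saline (log2 change 0.91, SE 0.14, adjusted p = 0.00114). The peptide trimming enzyme gene Erap1 stood at 453, 437 and 439 units with ovalbumin and 359, 311 and 330.3 with saline (log2 change 0.41, SE 0.08, adjusted p = 0.00273). Both had groups that were apart. H2-D1, a class I heavy chain gene, stood at 12919.8, 11719 and 8522 units with ovalbumin and 8622, 6496 and 6496 with saline and did not pass (adjusted p = 0.0626). Of 12 MHC class II genes 5 rose and 1 fell, with a median of 0.78, and 10 rose without library 3 while 2, 3, 3 and 3 did without library 1, 2, 5 or 6. Ifi30, a lysosomal reductase that opens antigens for this pathway, stood at 1662, 1154 and 1162 units with ovalbumin and 517, 484 and 531 with saline (log2 change 1.35, SE 0.22, adjusted p = 0.00399). Cd74, the invariant chain, stood at 23018, 18662 and 10506 units with ovalbumin and 9701, 9003 and 8622 with saline, with library 3 far below libraries 1 and 2 (adjusted p = 0.0651). The fall was that of H2-Ob (-0.48, adjusted p = 0.036), an inhibitor of class II peptide loading in B cells, and without library 2, 3, 4, 5 or 6 it did not pass.

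Macrophage genes rose in several lists. Of 16 tested Fc receptor and scavenger lectin genes 11 rose and 2 fell (Cd36 and Fcgrt), with a median of 1.34. The rises numbered 7, 7, 7 and 6 without library 1, 2, 4 or 6, and the falls 0, 1, 1 and 0 without library 1, 3, 5 or 6. Msr1, a scavenger receptor, stood at 172, 108 and 134 units with ovalbumin and 22, 40.2 and 22.9 with saline (log2 change 2.27, SE 0.32, adjusted p = 0.000895). Fcgr2b, the inhibitory IgG receptor, stood at 698, 504 and 491 units with ovalbumin and 178, 189 and 178 with saline (log2 change 1.61, SE 0.19, adjusted p = 0.000525). The lectin gene Clec4a2 stood at 68.2, 44.6 and 44 units with ovalbumin and 13.5, 16.1 and 12.2 with saline (log2 change 1.81, SE 0.25, adjusted p = 0.000479). The groups did not overlap in any of these 3. Of 11 genes of the MS4A family on chromosome 19, 6 rose and 0 fell, with a median of 0.96 (5 to 6 with any 1 library left out). The ones of macrophages moved furthest: Ms4a6d stood at 144, 104 and 107 units with ovalbumin and 18.3, 22 and 24.9 with saline (log2 change 2.39, SE 0.30, adjusted p = 0.000352) and Ms4a7 at 103, 65.2 and 71.4 units with ovalbumin and 20.1, 22 and 21.9 with saline (log2 change 1.83, SE 0.23, adjusted p = 0.000265). Ms4a1, the B cell gene CD20 of the same family, stood at 49.7, 56.4 and 57.6 units with ovalbumin and 62.1, 83.7 and 61.7 with saline, all below saline, and did not pass (adjusted p = 0.226), and the T cell gene Ms4a4b stood at 132, 129.8 and 104 units with ovalbumin and 138, 124 and 83.9 with saline.

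Of 12 cathepsin and cystatin genes, lysosomal proteases and their inhibitors, 9 rose and 0 fell, with a median of 0.92 (7 to 9 with any 1 library left out). Ctsc, which activates granule proteases, stood at 2645, 2516 and 1985 units with ovalbumin and 1228, 1264 and 1171 with saline (log2 change 0.95, SE 0.12, adjusted p = 0.00047), and the collagen-degrading Ctsk at 445, 296 and 255 units with ovalbumin and 84.9, 138 and 108 with saline (log2 change 1.57, SE 0.28, adjusted p = 0.00598). Ctsh changed by 0.48, adjusted p = 0.00349 and Ctsd by 0.34, adjusted p = 0.00631. In the interstitial macrophage list 3 of 8 markers rose and 0 fell (2 to 3 rises with any 1 library left out). C1qb, a chain of the first complement component, stood at 1029, 772 and 669.8 units with ovalbumin and 303, 232 and 225 with saline (log2 change 1.69, SE 0.25, adjusted p = 0.00256). The resident markers Folr2 and Cd163 stood at 18.4, 27.7 and 12.5 units with ovalbumin and 14.3, 18.4 and 26.7 with saline and at 82.3, 118 and 73.3 units with ovalbumin and 94.1, 99.5 and 134 with saline, and neither passed. Among 22 sensors of microbes 9 rose and Tlr5 fell (3 and 4 rises without library 1 or 6, 0 falls without library 1 and 2 without library 3), led by the RNA sensor Tlr13 at 170.4, 135 and 149 units with ovalbumin and 56, 70.4 and 55 with saline (log2 change 1.31, SE 0.17, adjusted p = 0.000259) and Cd14, the lipopolysaccharide coreceptor, at 316, 322 and 272 units with ovalbumin and 179, 155 and 175 with saline (log2 change 0.83, SE 0.13, adjusted p = 0.000694).

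Secretory cells meet a rise in protein output by making more chaperones, a programme called the unfolded protein response and driven by the factors ATF6 and XBP1. Of 19 tested genes of the list 14 rose and 0 fell, with a median of 0.81, and 13 of the 14 kept the call without each library. Hspa5, the chaperone BiP (chromosome 2, 34771970 to 34777547, plus strand, mm10), stood at 5856, 4399.7 and 5253 units with ovalbumin and 2557, 2274 and 2054 with saline (log2 change 1.17, SE 0.17, adjusted p = 0.00262). The lectin chaperone gene Calr stood at 7904, 6836 and 7511 units with ovalbumin and 4004, 3668 and 3132 with saline (log2 change 1.05, SE 0.16, adjusted p = 0.00296). The disulfide isomerase gene Pdia6 stood at 2196, 1755 and 2108 units with ovalbumin and 1024, 1075 and 879 with saline (log2 change 1.02, SE 0.15, adjusted p = 0.00217). In each of these the lowest ovalbumin library was above the highest saline library by more than the spread within either group. Manf, a secreted ER stress protein, stood at 584, 537 and 629 units with ovalbumin and 316, 269.7 and 256 with saline (log2 change 1.06, SE 0.16, adjusted p = 0.00137), and Creld2 changed by 1.20, adjusted p = 0.00388, Hsp90b1 by 0.84, adjusted p = 0.00739. The smaller rises were close in all libraries: Xbp1 stood at 1207, 1038 and 1072 units with ovalbumin and 805, 763 and 780.3 with saline (log2 change 0.50, SE 0.09, adjusted p = 0.00162), Canx at 3668, 3506 and 3566 units with ovalbumin and 2778, 2720.3 and 2649 with saline (log2 change 0.40, SE 0.07, adjusted p = 0.00172) and Dnajc3 at 1703, 1636 and 1696 units with ovalbumin and 1344, 1268 and 1216 with saline (log2 change 0.40, SE 0.07, adjusted p = 0.00148).

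The list's other 5 genes did not pass in limma, and 1 of them, Dnajb9, was higher at an unadjusted p under 0.05. Ddit3, the gene of the stress factor CHOP, stood at 175, 106 and 119.9 units with ovalbumin and 109, 113 and 106 with saline, Atf4 at 898, 672 and 709 units with ovalbumin and 629.8, 629 and 671 with saline and Herpud1, a gene of ER degradation, at 803, 946 and 908 units with ovalbumin and 872, 833 and 904 with saline (adjusted p = 0.405, 0.258 and 0.876). Atf6 itself stood at 848, 852 and 786 units with ovalbumin and 898, 878 and 916 with saline. In plasma cells, whose antibody output also needs this machinery, 2 of 8 markers rose, or 1 without library 1: Fkbp11 stood at 41.2, 38.1 and 20 units with ovalbumin and 8.33, 8.83 and 11.3 with saline (log2 change 1.64, SE 0.34, adjusted p = 0.0043), and Derl3 changed by 1.56, adjusted p = 0.0143, a call that ended without library 1 or 4 (adjusted p = 0.0877 and 0.0596).

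The promoters of the chaperone genes are shown because such genes are known to carry the ER stress response element, the site known to bind NF-Y and ATF6. With both strands searched in the 250 bases before the RefSeq start site, CCAAT followed after any 9 bases by CCACG was found in 7 of the 15 list members that have an entry, and in 0.148% of the 13550 tested genes with an entry (20 genes) or 0.13% of all 27025. Of those 20 genes, which include the 7 list members, 11 rose and 1 fell. All 7 list members with the match rose, and 4 of the 8 without it did. Each stretch runs 5′ to 3′ on the strand of its gene, and capitals mark the match, CCAAT to CCACG or its reverse complement.
Calr: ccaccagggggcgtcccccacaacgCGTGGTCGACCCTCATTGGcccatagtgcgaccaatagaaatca
Canx: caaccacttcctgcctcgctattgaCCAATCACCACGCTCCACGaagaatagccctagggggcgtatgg
Creld2: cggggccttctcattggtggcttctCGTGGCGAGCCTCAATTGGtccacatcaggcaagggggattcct
Dnajc3: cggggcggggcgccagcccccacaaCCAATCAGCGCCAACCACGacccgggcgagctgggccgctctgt
Hsp90b1: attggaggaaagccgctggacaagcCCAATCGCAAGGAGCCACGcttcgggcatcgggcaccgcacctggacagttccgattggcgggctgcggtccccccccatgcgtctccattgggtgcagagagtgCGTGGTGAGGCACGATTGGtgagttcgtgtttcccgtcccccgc
Hspa5: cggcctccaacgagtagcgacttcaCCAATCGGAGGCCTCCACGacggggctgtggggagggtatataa
Pdia6: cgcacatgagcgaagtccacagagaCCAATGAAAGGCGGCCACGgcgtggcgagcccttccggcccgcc
They are RefSeq sequences of GRCm38.p6: Calr chr8:84847050-84847118 (minus strand), Canx chr11:50325775-50325843 (minus strand), Creld2 chr15:88819495-88819563 (plus strand), Dnajc3 chr14:118937802-118937870 (plus strand), Hsp90b1 chr10:86705508-86705681 (minus strand), Hspa5 chr2:34772000-34772068 (plus strand), Pdia6 chr12:17266466-17266534 (plus strand). Calr and Creld2 carry the match on the opposite strand, and Hsp90b1 carries 2 matches, 1 on each strand, beginning 212 and 107 bases before the start site. The match of Hspa5 begins 65 bases before its RefSeq start site and lies inside the gene interval given above. That interval is from the GENCODE annotation, which begins the gene further upstream. The letters do not show binding. Calr, Creld2, Hsp90b1, Hspa5 and Pdia6 were named for these sequences after their values were seen.

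**Figure D5:**
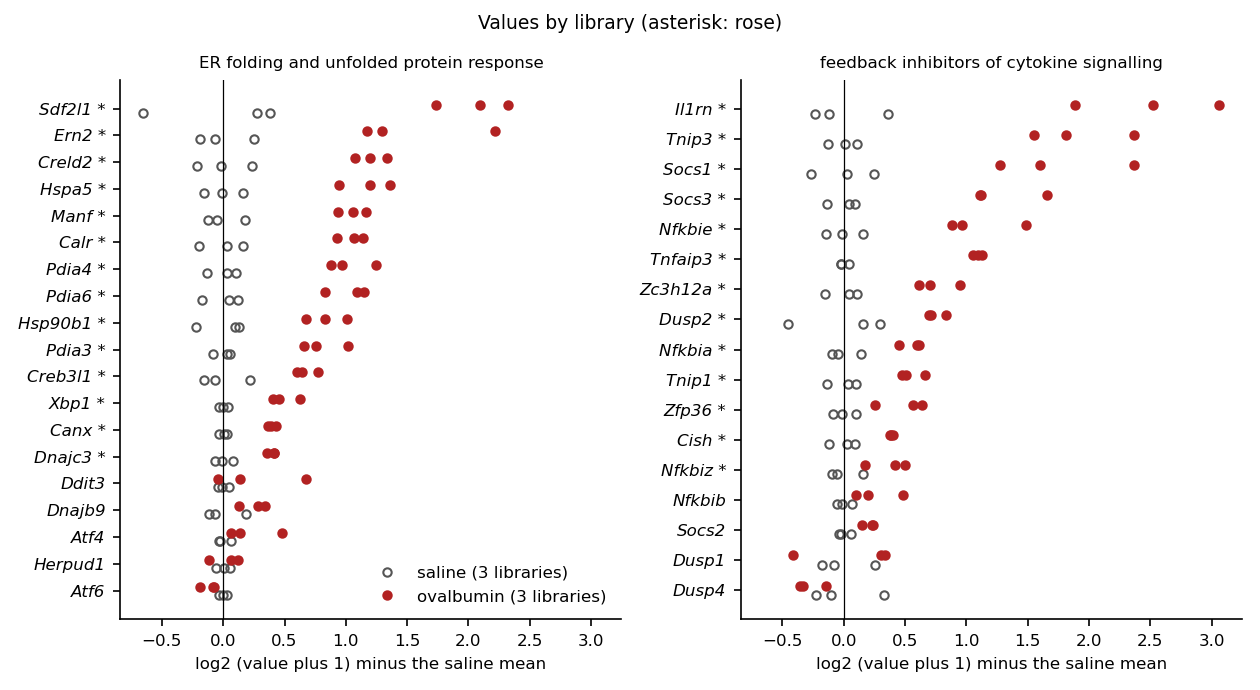
Log2 (value plus 1) of each tested gene minus the mean of its 3 saline libraries, with 1 point per library, saline open and ovalbumin filled, for the ER folding list and the feedback inhibitors. Genes with an asterisk rose. In the ER folding panel the 14 rises stand above Ddit3, Dnajb9, Atf4, Herpud1 and Atf6, whose mean changes are smaller, and in the second panel Tnfaip3 has its ovalbumin points close together near 1.09.

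A few genes of the airway epithelium rose by large amounts. Slc26a4, which encodes pendrin, an anion exchanger of mucous airways in mice and humans, stood at 1102, 450 and 497 units with ovalbumin and 36, 83.9 and 28.9 with saline (log2 change 3.79, SE 0.70, adjusted p = 0.00901). It was the 1 rise among 13 tested genes of airway ion and water transport, and 2 fell, Aqp1 and Aqp4 (0 to 3 with any 1 library left out, at 1, 1, 0, 1 and 0 without library 1, 3, 4, 5 or 6). The chloride channel gene Cftr stood at 70.2, 99.5 and 80.5 units with ovalbumin and 64.7, 76.7 and 75 with saline and the calcium-activated channel gene Ano1 at 1159, 1143 and 1245 units with ovalbumin and 1153, 1242 and 1178 with saline, and neither passed. Pigr, the receptor that carries IgA and IgM across the epithelium, stood at 3009.8, 2105 and 2011 units with ovalbumin and 808, 753 and 774 with saline (log2 change 1.58, SE 0.22, adjusted p = 0.00229). Of 15 genes of mucin glycosylation and trefoil factors 6 rose and 0 fell, with a median of 0.50 (4 to 7 with any 1 library left out). Tff2, a trefoil peptide secreted with mucus, stood at 138, 119.7 and 79 units with ovalbumin and 37, 36.6 and 45.2 with saline (log2 change 1.45, SE 0.28, adjusted p = 0.00488), and Gcnt1 and Qsox1 changed by 0.77, adjusted p = 0.00829 and 0.34, adjusted p = 0.00493.

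The RELM, chitinase, CLCA and Schlafen families, whose genes sit in tandem, had 1 or 2 members that passed each. Of the RELM genes on chromosome 16 Retnla, a product of macrophages and epithelium in type 2 inflammation, stood at 9361, 6496 and 6238 units with ovalbumin and 338, 279.8 and 333 with saline (log2 change 4.51, SE 0.52, adjusted p = 0.00136). Its relatives did not pass: Retnlb stood at 4.75, 3 and 0 units with ovalbumin and 0, 0 and 0 with saline and Retnlg at 110.2, 75.2 and 84.8 units with ovalbumin and 24.1, 55.1 and 44.5 with saline. Without library 3 there were 2 rises in that family. Among the 4 tested chitinase genes of chromosome 3 all had ovalbumin values above the saline values, as 16.2% of all tested genes did, and 2 rose. Chil3 stood at 8082, 6766 and 5649 units with ovalbumin and 1252, 2322 and 1209 with saline (log2 change 2.15, SE 0.35, adjusted p = 0.00548). Chia1, the acidic chitinase, stood at 884, 445 and 769.7 units with ovalbumin and 231, 242 and 242 with saline, with groups apart and an adjusted p of 0.0509. The second rise there, Chil4 (5.41, adjusted p = 0.0129), ended without library 1 (adjusted p = 0.0544), which left 1. Of 7 CLCA genes only the goblet cell gene Clca1 passed, at 6426, 3039 and 2093 units with ovalbumin and 104, 24.8 and 180.2 with saline (5.45, adjusted p = 0.0134, and adjusted p = 0.057 without library 1, which left 0). The change of Clca1 was 4.64 without library 5 and 6.05 without library 6, and that of Chil4 was 4.80, 4.70 and 6.31 without library 1, 4 or 6. Both calls also ended with the squamous level as a covariate. In the Schlafen family of chromosome 11 Slfn9 rose, at 330.2, 223 and 243 units with ovalbumin and 51.5, 68.2 and 45.2 with saline (log2 change 2.25, SE 0.40, adjusted p = 0.0063). Of the 7 members 6 had all ovalbumin values above all saline values, against 16.2% of all tested genes, but only Slfn9 passed. Slfn4, a gene of myeloid cells, stood at 814, 172 and 318 units with ovalbumin and 78.8, 129 and 36.6 with saline (adjusted p = 0.127), and 3 members rose without library 2. The members of each of these families resemble each other in sequence, so the split of reads between them is uncertain.

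Antibody genes split the ovalbumin group. The summed level of the 4 IgG heavy chain genes was 4732 and 4000.2 units in libraries 1 and 2 and 74.5 in library 3, beside 93.8, 105 and 29.7 with saline. Ighg1, the mouse IgG of type 2 responses, stood at 849, 567 and 17.1 units with ovalbumin and 6.67, 6.67 and 1.92 with saline, and Jchain, which joins IgA and IgM, at 922, 454 and 23.4 units with ovalbumin and 61, 119 and 108 with saline. Library 3 was thus in or near the saline range in genes of secreted antibody. In the list of 10 tested antibody genes 1 rose and 1 fell, and 3 rose without library 3. The rise was that of Pigr. The fall was that of Ighd, the IgD chain of resting B cells, which stood at 259, 225 and 244 units with ovalbumin and 370.2, 412 and 364 with saline (log2 change -0.65, SE 0.13, adjusted p = 0.00393).

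Many genes that handle iron, oxidants and heme rose. Of 16 tested iron and metal genes 8 rose and 0 fell, with a median of 0.59 (7 to 8 with any 1 library left out). Lcn2, lipocalin 2, which traps bacterial iron carriers, stood at 6179, 4569 and 4654 units with ovalbumin and 924, 844 and 762 with saline (log2 change 2.59, SE 0.25, adjusted p = 0.000582). The zinc and iron importer gene Slc39a14 stood at 526, 403 and 391 units with ovalbumin and 208, 215 and 191 with saline (log2 change 1.09, SE 0.15, adjusted p = 0.000751). The ferritin heavy chain gene Fth1 stood at 14703, 13138 and 11719 units with ovalbumin and 8522, 8747 and 9361 with saline (log2 change 0.57, SE 0.08, adjusted p = 0.000511). The groups were apart in all 3. Of 15 antioxidant genes 8 rose and 2 fell, with a median of 0.31, and 4, 5 and 5 rose without library 1, 2 or 4. Hmox1, which breaks down heme, stood at 1003, 1188 and 777 units with ovalbumin and 226, 215 and 223 with saline (log2 change 2.13, SE 0.27, adjusted p = 0.00165). The extracellular superoxide dismutase gene Sod3 stood at 4143, 3513 and 3336 units with ovalbumin and 2522, 2572 and 2602 with saline (log2 change 0.51, SE 0.07, adjusted p = 0.000511). The falls were those of Cat, catalase, at 1004, 1447 and 1241 units with ovalbumin and 1775, 1752 and 1863 with saline (log2 change -0.56, SE 0.12, adjusted p = 0.00628) and of Sod1, the cytosolic dismutase, at -0.33, adjusted p = 0.00748.

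Arginine and amino acid genes rose in part. Of 16 genes of arginine, nitric oxide and polyamine metabolism 6 rose and 0 fell, with a median of 0.43 (4 to 7 with any 1 library left out, and 1 fall without library 3). Arg1, the arginase of alternatively activated macrophages in mice, stood at 956, 373 and 472 units with ovalbumin and 33.8, 47.7 and 35 with saline (log2 change 3.81, SE 0.73, adjusted p = 0.0106). The arginine importers Slc7a2 and Slc7a1 changed by 1.02, adjusted p = 0.0112 and 0.60, adjusted p = 0.00527, and Srm, which makes spermidine, by 0.87, adjusted p = 0.00129. Nos2, which encodes the inducible nitric oxide synthase that competes for arginine, stood at 301, 99.8 and 69.3 units with ovalbumin and 46.9, 79.3 and 66.8 with saline, with overlapping groups and library 1 alone high (adjusted p = 0.214). Slc7a11, which imports cystine for glutathione, stood at 203, 156 and 126 units with ovalbumin and 20.1, 28.2 and 35.4 with saline (log2 change 2.50, SE 0.40, adjusted p = 0.00256). Mthfd2, a mitochondrial folate enzyme, changed by 1.43, adjusted p = 0.00289. Together with Sesn2 they were the 3 rises among 12 genes of serine and amino acid supply, where 0 fell (2 to 4 rises with any 1 library left out). Hk3, the hexokinase of myeloid cells, stood at 452, 175 and 221 units with ovalbumin and 44.8, 65.7 and 42.9 with saline (log2 change 2.35, SE 0.47, adjusted p = 0.0106); the 4 other rises among 15 glycolysis genes were small, and the list's count of 5 fell to 1, 2, 1, 1 and 3 without library 1, 3, 4, 5 or 6. In the respiratory chain 0 of 17 genes rose and 1 fell (Sdha), with a median of 0.03, and that fall was 0 without library 1, 2, 4 or 6 and 3 without library 3.

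Of 18 cholesterol genes 1 rose. It was Ch25h, whose product 25-hydroxycholesterol is made by activated macrophages and guides B and T cells through its derivative, and it stood at 114, 112 and 81.5 units with ovalbumin and 18.7, 9.92 and 7.67 with saline (log2 change 3.06, SE 0.28, adjusted p = 2.34e-05). The synthesis gene Sqle stood at 369, 351 and 331 units with ovalbumin and 350.3, 324 and 362 with saline and did not pass, and 1 gene of the list fell without library 4. Of 21 prostaglandin and leukotriene genes 4 rose (Alox5ap, Ptger4, Ptgs1 and Tbxas1) and 2, Hpgd and Ptgfr, fell (3 to 5 rises with any 1 library left out, and 1 fall without library 4 or 5). Tbxas1, thromboxane synthase, stood at 361, 281 and 241 units with ovalbumin and 119, 129 and 129.9 with saline (log2 change 1.20, SE 0.19, adjusted p = 0.00156), and Alox5ap, which hands arachidonic acid to the leukotriene enzyme, changed by 0.71, adjusted p = 0.00173. The cyclooxygenase 2 gene Ptgs2 stood at 42.3, 42.6 and 42.2 units with ovalbumin and 33.2, 44.8 and 39.4 with saline and did not pass. Ptgfr, the receptor of prostaglandin F2 alpha, stood at 32.4, 58.7 and 58.7 units with ovalbumin and 97.2, 103 and 98.7 with saline (log2 change -1.03, SE 0.21, adjusted p = 0.00366).

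Several protease inhibitors and clotting factors rose. Of 12 serpins and antiproteases 5 rose and Serpinf1 fell, with a median of 0.04, the same counts with each library left out. Of these, 3 lie in 1 cluster of chromosome 12. Serpina3n, an acute-phase inhibitor, stood at 2576, 2511 and 2701 units with ovalbumin and 560.1, 489.6 and 440.2 with saline (log2 change 2.39, SE 0.26, adjusted p = 0.00104). Serpina3g stood at 517, 395 and 279 units with ovalbumin and 110.4, 60 and 47.5 with saline (log2 change 2.48, SE 0.41, adjusted p = 0.0049). Serpina3f stood at 233, 213 and 118 units with ovalbumin and 38.8, 11.9 and 8.92 with saline (log2 change 3.40, SE 0.63, adjusted p = 0.00791), with a change of 4.0 without library 4. They are near copies, so the split of reads between them is uncertain. Of 14 coagulation genes 7 rose and 0 fell, with a median of 0.33 (4 without library 6, and 1 fall without library 2). F10, factor X, stood at 412, 232 and 235 units with ovalbumin and 41.1, 63 and 37.2 with saline (log2 change 2.59, SE 0.41, adjusted p = 0.0039). F7, its activator, stood at 228, 206 and 221 units with ovalbumin and 90.3, 108 and 82.9 with saline (log2 change 1.22, SE 0.17, adjusted p = 0.000483). Tissue factor, F3, did not pass, at 359.8, 316 and 326 units with ovalbumin and 293, 227 and 315 with saline, and neither did thrombomodulin, Thbd, at 3087, 4373 and 4186 units with ovalbumin and 5329, 4977 and 4590.4 with saline. In the list of antimicrobial secretions 1 rose and 2 fell of 12, and all 3 of these calls, those of Saa1, Ngp and Camp, ended without library 1, 4 or 5.

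Matrix enzymes and their inhibitors moved in both directions. Of 16 metalloproteinase genes 6 rose and 3 fell (Mmp11, Timp2 and Timp3), with a median of 0.64. In turn, 3 rose without library 1, 4 or 6, and 1 fell without library 1, 5 or 6. Timp1, the inducible inhibitor, stood at 720.3, 301 and 255 units with ovalbumin and 31.1, 33.1 and 18.3 with saline (log2 change 3.79, SE 0.65, adjusted p = 0.00635), while Timp2, the constitutive inhibitor, stood at 3049.8, 3353 and 3378 units with ovalbumin and 3989, 4037 and 4143 with saline (log2 change -0.32, SE 0.07, adjusted p = 0.00548). The sheddase gene Adam8 stood at 963, 593 and 539 units with ovalbumin and 229.7, 285 and 242 with saline (log2 change 1.42, SE 0.28, adjusted p = 0.0105). Mmp12, the macrophage elastase, stood at 766, 293 and 79.8 units with ovalbumin and 11.2, 131 and 16.2 with saline, with saline library 5 above ovalbumin library 3, and did not pass (adjusted p = 0.111). Of 14 genes of collagen crosslinking and folding 6 rose and 0 fell, with a median of 0.32 (5 to 7 with any 1 library left out, and 1 fall without library 2). Serpinh1, the collagen chaperone HSP47, stood at 4977, 4912 and 4702 units with ovalbumin and 2516, 2750 and 2093 with saline (log2 change 1.00, SE 0.19, adjusted p = 0.00766). Lox, which crosslinks collagen and elastin, stood at 761, 980.1 and 648 units with ovalbumin and 462, 420.1 and 422 with saline (log2 change 0.85, SE 0.16, adjusted p = 0.00524). P4ha3, a prolyl hydroxylase, changed by 1.75, adjusted p = 0.00355. Of 12 matricellular genes 2 rose and 1 fell. Fn1, fibronectin, stood at 11964, 11265 and 13138 units with ovalbumin and 6836, 7595 and 7108 with saline (log2 change 0.75, SE 0.12, adjusted p = 0.00194), and the other 2 calls, of Tnc and Thbs2, ended without library 1, 2, 4 or 6, that of Thbs2 also without library 5, while 4 rose without library 3.

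The largest falls were in genes of fat cells. Of 10 markers 9 fell, with a median of -2.38 (6 to 9 with any 1 library left out). Adipoq, the hormone adiponectin, stood at 19.5, 14.6 and 11.2 units with ovalbumin and 91.9, 360.3 and 367 with saline (log2 change -3.87, SE 0.66, adjusted p = 0.00577), and without library 4 its change was -4.53. Lep, leptin, stood at 0, 1.5 and 0 units with ovalbumin and 10.2, 11.5 and 28.8 with saline (log2 change -3.57, SE 0.54, adjusted p = 0.000654), Retn, resistin, at 6.92, 6.67 and 14 units with ovalbumin and 56.6, 146 and 168 with saline (log2 change -3.54, SE 0.49, adjusted p = 0.00107). The lipid droplet gene Cidec stood at 56.4, 75 and 56.2 units with ovalbumin and 201, 322 and 329 with saline (log2 change -2.14, SE 0.25, adjusted p = 0.000465). The groups were apart in each, and saline library 4 was the lowest of its group. Outside the list, Pck1 and Car3, which fat tissue expresses, changed by -3.31, adjusted p = 0.00648 and -3.03, adjusted p = 0.00235. Of 12 cardiomyocyte markers 9 fell, with a median of -1.16, and 8 of the 9 kept the call without each library. The atrial light chain gene Myl7 stood at 194, 199.8 and 199.8 units with ovalbumin and 502, 556 and 508 with saline (log2 change -1.39, SE 0.14, adjusted p = 8.19e-05). Myh6, the myosin of mouse heart, stood at 2579, 2366 and 2498 units with ovalbumin and 5704, 7196 and 5649 with saline (log2 change -1.31, SE 0.15, adjusted p = 0.000678). Both groups were tight, and every ovalbumin value was below every saline value. The ventricular light chain gene Myl2 stood at 0, 1.58 and 6.58 units with ovalbumin and 0, 0 and 12.5 with saline. The summed level was 762, 743 and 597 units with ovalbumin and 1913, 4709.8 and 4724 with saline for the fat list, and 4514, 4294 and 4739 against 9822, 12054 and 9875 for the heart list. Heart muscle cells line the pulmonary veins of the mouse, and the part of the tissue dissected with the lung in these results was not tested. In the smaller lists 3 of 6 Schwann cell markers fell (2 to 4 with any 1 library left out). Of 7 mesothelial markers 3 fell (Muc16, Upk1b and Upk3b) (2 to 3), with Muc16 at 279, 321 and 333 units with ovalbumin and 628, 526 and 576 with saline (-0.89, adjusted p = 8.29e-05) and Upk3b at -0.88, adjusted p = 0.00584. Cartilage and thymocyte markers gave 0 calls in limma among 6 and 4, with 0 and 2 members at an unadjusted p under 0.05. At that level 2750 of all 19017 tested genes were higher and 2973 lower. Cartilage gave 1 fall without library 6.

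Several genes of drug and toxin metabolism fell. Of 21 tested 8 fell and 0 rose, with a median of -0.64. In turn, 5 fell without library 4 or 6, and 1 rose without library 3. Cyp2f2, a cytochrome P450 of mouse club cells, stood at 5144, 9003 and 7368 units with ovalbumin and 13669, 13669 and 13904 with saline (-0.98, adjusted p = 0.0138), a call that ended in a fit of the 6 WT libraries alone. Cyp2e1, the ethanol-induced P450, stood at 32.9, 52.6 and 46.1 units with ovalbumin and 136, 280.2 and 197 with saline (log2 change -2.16, SE 0.28, adjusted p = 0.000525). Ces1d, a carboxylesterase, changed by -0.66, adjusted p = 0.00803 and Cyp4b1 by -0.63, adjusted p = 0.00824. In all of these every ovalbumin value was below every saline value. Cyp2e1 is also expressed in fat, whose summed markers were lower with ovalbumin too, and their part in this result was not tested. Cyp1a1, the target of the aryl hydrocarbon receptor, stood at 10.8, 330.3 and 5.17 units with ovalbumin and 4.67, 21.7 and 15 with saline, with library 2 alone high. Of 16 genes of fatty acid use 4 fell (Acadm, Acadvl, Fabp3 and Ppara) and 0 rose, with a median of -0.24 (2 falls without library 1, 1 rise without library 3). Fabp3, the fatty acid carrier of heart and muscle, stood at 27.7, 42.1 and 40.6 units with ovalbumin and 80.8, 98.5 and 102 with saline (log2 change -1.34, SE 0.21, adjusted p = 0.000796). Acadm, which starts the oxidation of medium chains, stood at 289.5, 322 and 318 units with ovalbumin and 435, 478 and 484 with saline (log2 change -0.59, SE 0.09, adjusted p = 0.000647).

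Several genes of vessels and their signals fell, by smaller amounts. Of 17 genes of VEGF, angiopoietin and endothelin signalling 8 fell and 0 rose, with a median of -0.31. In turn, 4, 3, 4 and 4 fell without library 1, 4, 5 or 6. Nrp1, the VEGF coreceptor, stood at 2392, 2484 and 2655 units with ovalbumin and 3123, 3269 and 2927 with saline (log2 change -0.31, SE 0.07, adjusted p = 0.00528), Vegfb at 147, 164 and 148 units with ovalbumin and 203, 217 and 242 with saline (log2 change -0.52, SE 0.11, adjusted p = 0.0048). Angpt2, which loosens vessels, stood at 58.7, 60.2 and 65.6 units with ovalbumin and 85.8, 89.5 and 99.4 with saline (log2 change -0.57, SE 0.13, adjusted p = 0.00959). Of 9 pericyte markers 5 fell (Abcc9, Cox4i2, Higd1b, Notch3 and Pdgfrb), or 3 without library 1, 2, 4, 5 or 6. Notch3, the receptor of mural cells, stood at 1018, 1133 and 1339 units with ovalbumin and 1582, 1694 and 1624 with saline (log2 change -0.50, SE 0.09, adjusted p = 0.00216). Abcc9, a potassium channel subunit, stood at 107, 153 and 174 units with ovalbumin and 283, 262 and 275 with saline (log2 change -0.94, SE 0.16, adjusted p = 0.00148). Of 10 capillary markers 4 fell (Ednrb, Fibin, Gpihbp1 and Tbx2), at counts of 2, 1, 0, 1 and 2 without library 1, 2, 4, 5 or 6. Pecam1, which all endothelium carries, stood at 5508, 5012 and 5165 units with ovalbumin and 5602, 5424 and 5292 with saline, with overlapping groups, and Plvap at 2936, 3436 and 2886 units with ovalbumin and 2736, 2730.2 and 2890.2 with saline. Of 6 lymphatic markers 3 fell (Ccl21a, Mmrn1 and Reln) and 1 rose (2 to 3 falls with any 1 library left out). Reln stood at 95, 151 and 134 units with ovalbumin and 232, 205 and 243 with saline (log2 change -0.86, SE 0.16, adjusted p = 0.00263). Pdpn, which alveolar cells share, stood at 1314, 1067 and 1158 units with ovalbumin and 741, 834 and 801 with saline (log2 change 0.57, SE 0.12, adjusted p = 0.00693).

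Developmental signals changed in few members. Of 18 Wnt genes 4 fell (Axin2, Dkk3, Lgr6 and Wnt2) and 1 rose, with a median of -0.16, and 2 fell without library 4. Axin2, a direct readout of canonical Wnt signalling, stood at 314, 395 and 373 units with ovalbumin and 460.4, 554 and 499.9 with saline (log2 change -0.49, SE 0.11, adjusted p = 0.00639), and Sfrp1, which encodes a secreted Wnt inhibitor, stood at 526, 410.2 and 345 units with ovalbumin and 196, 199.7 and 178 with saline (log2 change 1.13, SE 0.14, adjusted p = 0.00031). In both the groups were apart. Of 21 BMP and FGF genes 4 fell (Bmp6, Fgf1, Fgf10 and Grem1) and 2 rose (Id2 and Inhba), with a median of -0.32. In turn, 2, 1 and 1 fell without library 1, 4 or 5, and 0, 1, 1 and 0 rose without library 1, 2, 4 or 6. Bmp6 stood at 593, 727 and 735 units with ovalbumin and 1098, 1080.1 and 956 with saline (log2 change -0.61, SE 0.10, adjusted p = 0.00117). In the EGF family 1 of 11 rose (Hbegf), or 0 with each library left out in turn, and 1 fell (Erbb3), or 3 without library 3. Of 15 tight junction genes 2 fell (Ocln and Tjp1), or 1 without library 6, with Tjp1, ZO-1, at 3276, 3678 and 3632 units with ovalbumin and 4544, 4502 and 4429 with saline (log2 change -0.35, SE 0.07, adjusted p = 0.00405), and Cldn18, the claudin of the alveolus, stood at 2861, 2762 and 2767 units with ovalbumin and 2910.4, 3087 and 3276 with saline and did not pass. Of 16 genes of neuropeptide and vasoactive signalling 3 fell (Npr1, Ramp1 and Vipr2) and Ramp3 rose (1 fall without library 1 or 6, 0 rises without library 2), with Vipr2, a receptor of vasoactive intestinal peptide, at 89.2, 135 and 129 units with ovalbumin and 207, 204 and 169 with saline (log2 change -0.73, SE 0.17, adjusted p = 0.00829).

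The remaining marker lists held few calls. Dclk1, a kinase gene of tuft cells and of some mesenchymal cells, stood at 199, 172 and 170.4 units with ovalbumin and 67.9, 70 and 66.6 with saline (log2 change 1.39, SE 0.13, adjusted p = 2.55e-05). It was the 1 call among 8 markers of tuft and neuroendocrine cells, and Trpm5 and Pou2f3, which define tuft cells, stood at 4.92, 11.9 and 11.9 units with ovalbumin and 4.5, 10.8 and 6.58 with saline and at 0, 3 and 0 units with ovalbumin and 2.67, 0 and 1.92 with saline. In the B cell follicle list Cxcl13 was the 1 rise of 8, beside 1 fall, that of Bcl6 (0 without library 6 and 2 without library 4), and in the monocyte list 2 of 8 rose (Ccr2 and Plac8), or 1, 0 and 0 without library 1, 4 or 6. In the group 2 innate lymphoid cell list 1 of 8 rose and 2 fell, Gata3 and Rora, and with any 1 library left out 0 to 2 rose and 0 to 1 fell. The rise was that of Il13, the cytokine that drives mucus, at 11.2, 1.5 and 6.5 units with ovalbumin and 0, 1 and 1 with saline (1.95, adjusted p = 0.0306), a call that ended without library 1, 3, 4, 5 or 6, and without library 2 its change was 2.59. Of 8 markers of lung epithelium Sftpa1 rose, except without library 1 or 6, and Hopx fell, except without library 4 or 6, while 2 fell without library 3.

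In units, the largest gains among called genes were those of Gm26917, C3, Actb, Col3a1, Retnla and Chil1, and the largest losses those of Gsn, Macf1, Sptbn1, Cyp2f2, Cbr2 and Inmt. At the top of the scale a value is only a rank: Gm26917, a noncoding RNA gene, was listed at 79206 in each ovalbumin library and at 53835 in each saline library, which are steps of the common distribution. Chil1, a chitinase-like protein of macrophages and epithelium, stood at 13904, 10150.5 and 9361 units with ovalbumin and 4309.7, 4590.4 and 4095 with saline (log2 change 1.34, SE 0.18, adjusted p = 0.00176). Gsn, gelsolin, which severs actin filaments, stood at 10713, 14703 and 17649 units with ovalbumin and 24726, 24726 and 24726 with saline (-0.81, adjusted p = 0.00752), and that call ended in a fit of the 6 WT libraries alone. Of 12 genes used as references in expression assays 5 rose and Eef2 fell, with 3 rises without library 1 or 6. Actb stood at 59724, 38574 and 38574 units with ovalbumin and 26940.2, 29075 and 23018 with saline (0.77, adjusted p = 0.0187), a call that ended without library 6 (adjusted p = 0.0632), in the 6 WT libraries alone and with the squamous level as a covariate. Gusb stood at 598, 484 and 450.2 units with ovalbumin and 322, 389 and 301 with saline (log2 change 0.59, SE 0.12, adjusted p = 0.00367). Polr2a, Hprt and Tbp did not pass.

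The same treatment in Has2+/- lungs, measured in other libraries, gave 351 rises and 181 falls among the 19017 tested genes. Of the WT rises 272 were called there too, which is 16.5% of the WT rises and 77.5% of the Has2+/- ones, and of the WT falls 121, which is 7.91% and 66.9%. Of all tested genes 8.65% rose and 8.05% fell in WT. Both sets of calls come from 1 fit with a shared spread for each gene, so they are not independent. A call in 1 genotype alone does not show a difference, and the interaction passed for 3 genes, Junb, Muc16 and Hamp2. Junb, which encodes an AP-1 subunit, stood at 1758, 1342 and 1630.2 units with ovalbumin and 709.8, 743 and 683 with saline and changed by 1.14 in WT and by -0.01 in Has2+/- (interaction adjusted p = 0.0331). Hamp2, a hepcidin gene, was at 0 in 5 of the 6 WT libraries and changed by -5.97 in Has2+/- (interaction adjusted p = 0.00627).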

How the data were processed

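Total RNA from flash-frozen lung was made into directional libraries after rRNA depletion and poly-A purification and sequenced on a NextSeq500, per the labels' protocols. The build was mm10, per the submitters' processing notes. The aligner, counter and treatment of shared reads were not given in the sources used here. Deposited values are a signal per gene that the authors normalized. Sorted, all 12 library columns are identical (largest difference 0, each summing to 6852201 units), so depth is unknown, no counting interval can be given, and a level is partly a rank. Of the table's 49585 genes, 26190 were at 0 in every library. Another 12 per-sample columns of transformed values were not used. The authors' deposited p-values and signed fold scores enter only the closing section.

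Values were tested as log2(value + 1) with limma 3.58.1 in R 4.3.3, with trend and robust options, over the 12 libraries with 1 mean per group, on genes that reached a group mean of 1 unit in any group. P-values were Benjamini-Hochberg adjusted over all 19017 genes, at a threshold of 0.05. Residual degrees of freedom were 8 and the median prior ones 8.40. On simulated data, 84 of 100 genes changed by 1 and 94 of 100 changed by 2 on the log2 scale were recovered, with 3 false calls among 18997 genes. The simulated spread was independent for each gene and library, with no difference shared by many genes and no common distribution forced. Changed genes were drawn only from those with a mean of at least 20 units. These figures check the code and are not error rates of this comparison.

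The members and lists were chosen with earlier results of these data known. Named genes were the 15 largest rises and falls with non-overlapping groups and a mean of at least 20, the 6 largest gains and losses in units, up to 4 members per list by adjusted p, the tandem families and other-tissue markers, and every gene of a count of 5 or fewer. Some of the genes this rule names are not reported here. Promoter sequences come from the RefSeq table of GRCm38.p6, matched by symbol. The alternatives were another pseudocount, filter, centring or limma option, treat (limma's test against a minimum change), the 6 WT libraries alone, and leaving out each library. The covariate fit was added after the data were seen.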

Additional observations from a re-analysis of the deposited data

Results flagged for a closer look

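Muc16, the gene of a large mucin of mesothelium and airway surfaces, differed in its response between the genotypes by limma's interaction term. It stood at 279, 321 and 333 units with ovalbumin and at 628, 526 and 576 with saline in WT lungs, where it changed by -0.89 on the log2 scale (adjusted p = 8.29e-05). In Has2+/- lungs it changed by -0.01 (adjusted p = 0.975). The difference, Has2+/- minus WT, was 0.88 (interaction adjusted p = 0.0481), which lies close to the threshold. All 3 WT ovalbumin libraries were below all 3 WT saline libraries.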

How the results depend on the processing

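Of the 19017 genes tested, 1645 rose and 1530 fell. With treat against a log2 change of 0.5 the counts were 86 and 18, with the squamous epithelium level as covariate 931 and 947, and without the trend and robust options 1182 and 963. With each library left out in turn 918 to 1709 rose and 735 to 1635 fell, lowest without library 1. A pseudocount of 0.5 or 5, no filter, a mean of at least 10 and the 6 WT libraries alone kept both counts within 1.5 times, from 1485 to 1694 and from 1317 to 1605. Centring could move little, since all libraries share 1 distribution, and is no check of scaling. No named gene that passed in the main fit or in the alternative changed sign between the 2. Changes of sign in genes that passed in neither were not counted. Of 272 named genes with a call, 184 kept it without each library, and 225 lost it under treat, 68 with the covariate, 51 without trend and robust options and 33 in the 6 WT libraries alone. No paired analysis was possible because the library numbers match no replicate number in the sample titles. Depth is not known, so low values carry an error that cannot be given, and the lists of fewer than 10 genes rest on few calls.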

Other observations

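The authors' deposited table of the same comparison holds 1712 genes with an FDR-corrected p below 0.05, a cut applied here. Of them, 1115 were higher and 597 lower with ovalbumin. Of these, 1036 rose and 587 fell in the fit described above, which is 92.9% and 98.3% of the authors' deposited table and 63% and 38.4% of the calls made here. The signed fold of the authors' deposited table is negative where ovalbumin is higher, in all 1712.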
